A study of Rattus norvegicus with 9 samples.

Results

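The 10 transcripts known as immediate early genes were followed in the dorsal root ganglia (DRG) of rats with chronic post-ischemia pain (CPIP), a model of complex regional pain syndrome, with and without electroacupuncture (EA). They were chosen by gene symbol, with earlier results of these data known: Fos (gene ID 314322), Fosb (100360880), Junb (24517), Egr1 (24330), Egr2 (114090), Egr3 (25148), Arc (54323), Nr4a1 (79240), Npas4 (266734) and Ier2 (494344). All 10 were found among the 20413 genes of the expression table. Of these, 9 had a mean of at least 0.1 FPKM (read fragments per kilobase of a transcript's length, scaled by mapped reads) over all libraries and entered the tests with 17187 genes in all, while Npas4 did not.

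The RNA came from the DRG of lumbar segments on the operated side of adult male Sprague Dawley rats, collected at day 10, and each of the 3 groups held 3 libraries, for 9 in all. CPIP rats had the circulation of 1 hind paw stopped for some hours by a tight ring, under anaesthesia, and then restored. Sham rats went through anaesthesia too, with an open ring and no ischemia. CPIP+EA rats had the same ischemia and reperfusion and were then stimulated through needles in both hind limbs once a day for 10 days, while held loosely. Whether Sham and CPIP rats were held or needled without current, and how long before tissue collection the last stimulation ended, is not given in the sources used here, and all rats were under deep anaesthesia and perfused with saline when the tissue was taken.

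Immediate early genes are switched on within minutes when a cell is stimulated, without any new protein having to be made first. Calcium entry and kinase cascades act on factors already bound to their promoters, among them CREB at cyclic AMP response elements and the serum response factor with its partners at CArG boxes. Most of the proteins are transcription factors that carry the signal on to later genes, and most of the transcripts are short-lived. In neurons they are used as marks of recent activity, but handling, anaesthesia, injury and dissection induce them too, and glia and vascular cells also make them. A whole ganglion mixes all of these cells, so more cells with a transcript and more of the transcript per cell cannot be told apart in these values.

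The libraries were alike in the sum of FPKM over all genes, 445647 to 482940, and in genes above 0, 18279 to 18456. The study reports similar read totals and mapping ratios for all libraries. The share of high-quality bases it reports was higher in every CPIP+EA library than in every Sham and CPIP library. FPKM carries no read counts, so the number of reads behind a single value is unknown. All 19 sensory neuron markers examined, such as Rbfox3, Scn10a and Calca, were above 0, with sums of 10962 to 13866 FPKM. None passed the threshold, but 15 of 19 had a negative log2 fold change in CPIP and in CPIP+EA against Sham (median -0.23 and -0.17), with 5 (26.3%) at an unadjusted p under 0.05 in each, against 8.66% and 12.2% of all genes. Of these 5, 1 was higher and 4 were lower in CPIP, while 2 were higher and 3 lower in CPIP+EA. Tubb3 was higher in each comparison. Over the 9 libraries the r of the median log2 deviation of the 19 markers was 0.63 with Egr1, 0.51 with Fosb, 0.50 with Fos, 0.49 with Arc, 0.35 with Junb, 0.27 with Egr3, 0.16 with Ier2, -0.04 with Nr4a1 and -0.31 with Egr2, and the part of these markers in the levels below was not tested. Of 14 genes known to rise in injured sensory neurons, 13 rose in CPIP against Sham and 14 in CPIP+EA against Sham, where 0.343% and 0.477% of all genes rose. The list was drawn up with earlier results on these libraries known and is no independent check of the labels. Schwann cell markers varied widely, from 3777 FPKM in CPIP+EA replicate 1 to 7442 in Sham replicate 3.

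RefSeq promoter windows (250 bases before to 50 after the gene start, assembly GRCr8) were at hand for 7 of the 10 genes. Stretches of 150 bases ending at the base before the gene start are shown for 4 of them, because they show where the letters of known promoter motifs lie before these genes. Capitals mark a CArG box in Egr2 (chr20:21054442-21054591, minus strand), an EGR site in Nr4a1 (chr7:134259988-134260137, plus strand), a full cyclic AMP response element in Ier2 (chr19:40399223-40399372, plus strand) and a TATA box in Junb (chr19:40080976-40081125, plus strand).
Egr2: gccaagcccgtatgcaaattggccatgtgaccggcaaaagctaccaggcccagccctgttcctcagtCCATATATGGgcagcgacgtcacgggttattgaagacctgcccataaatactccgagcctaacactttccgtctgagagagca
Nr4a1: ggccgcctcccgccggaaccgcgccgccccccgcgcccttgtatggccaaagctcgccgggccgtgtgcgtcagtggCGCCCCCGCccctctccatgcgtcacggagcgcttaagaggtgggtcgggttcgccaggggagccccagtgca
Ier2: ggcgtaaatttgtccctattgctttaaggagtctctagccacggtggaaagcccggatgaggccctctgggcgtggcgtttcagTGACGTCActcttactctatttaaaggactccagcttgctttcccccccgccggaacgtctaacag
Junb: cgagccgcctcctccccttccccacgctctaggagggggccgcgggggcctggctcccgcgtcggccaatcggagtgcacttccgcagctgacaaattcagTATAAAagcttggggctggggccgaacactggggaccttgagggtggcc

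Each motif was searched on both strands of the windows. The full cyclic AMP response element TGACGTCA was in Ier2 only, at 66 to 59 bases before its start, and in 1.83% of all 33469 RefSeq promoter windows. Its core TGACG, which lies within every full element, was in 5 of the 7 (Egr1, Egr2, Ier2, Junb and Nr4a1) and in 21.2% of all windows. Nr4a1 held 4 copies of the core, and Egr2 held 1 copy at 66 to 62 bases before its start. The CArG box was in Egr1 and Egr2 and in 1.64% of all windows. In both genes 1 copy lay 83 to 74 bases before the start, and Egr1 had another at 105 to 96 bases. The EGR site GCGNGGGCG was in Nr4a1 alone, read on the opposite strand 73 to 65 bases before the start, and in 4.98% of all windows. The letters TATAAA of the TATA box were in Junb and Fosb and in 14.2% of all windows. In Junb they lay on the strand of the gene, 49 to 44 bases before the start. In Fosb they were read on the opposite strand, 180 to 175 bases before the start. The AP-1 site TGANTCA was in none of the 7 and in 7.33% of all. These are matches of letters and not measured binding, and the promoters of Fos, Egr3 and Arc were not analysed here.

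The transcripts ranged from near 0 to above 20 FPKM. Nr4a1 was the most abundant, with a mean of 22.1 FPKM over the 9 libraries, followed by Egr2 at 13.6, Junb at 10.96, Egr1 at 9.49, Ier2 at 6.46, Fos at 3.93, Egr3 at 3.86, Fosb at 1.27, Arc at 1.09 and Npas4 at 0.04. Neighbours in this order were compared within libraries by an exact two-sided paired permutation test of log2 levels, adjusted over the 9 pairs. Nr4a1 exceeded Egr2, Ier2 exceeded Fos, Egr3 exceeded Fosb and Arc exceeded Npas4 in 9 of 9 libraries (exact permutation p = 0.00391, the smallest this test can give, adjusted p = 0.00879). The other neighbours were not told apart: the adjusted p was 0.392 for Egr2 and Junb, 0.199 for Junb and Egr1, 0.190 for Egr1 and Ier2, 0.895 for Fos and Egr3 and 0.760 for Fosb and Arc in the same exact permutation test. Despite its higher mean, Fosb exceeded Arc in only 3 of 9 libraries, with its highest value, 4.69 FPKM, in CPIP+EA replicate 1. FPKM is scaled to transcript length, which allows levels of different genes to be set side by side.

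**Figure D1:**
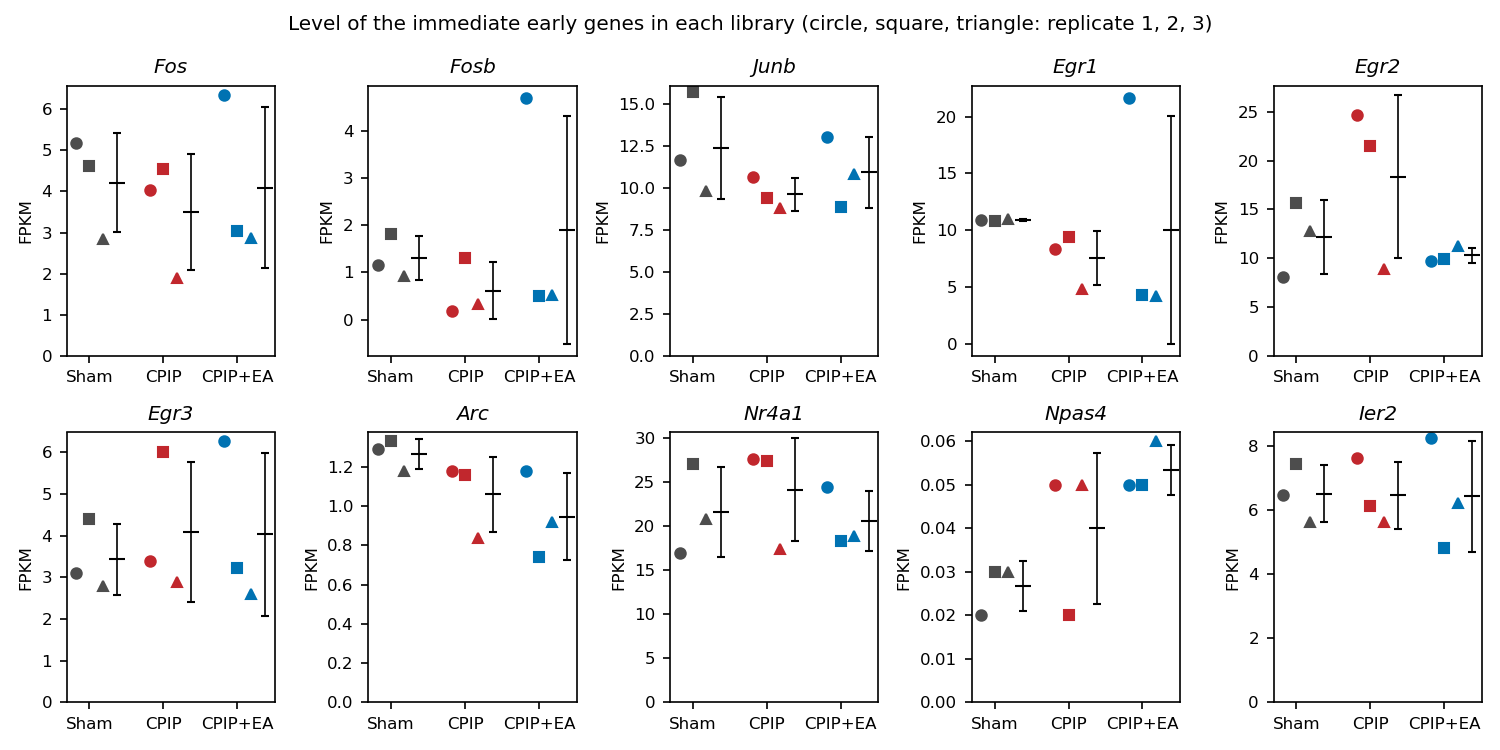
FPKM of each of the 10 immediate early genes, 1 panel per gene with its own linear axis, in Sham, CPIP and CPIP+EA. Points are libraries and bars are the group mean with the SD (n = 3). The single high point of CPIP+EA in Fosb (4.69 FPKM) and Egr1 (21.62 FPKM) is the same library, replicate 1.

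The first family, the AP-1 proteins, dimerise through leucine zippers. Fos, the founding member and the most used mark of activated neurons, measured 5.17, 4.62 and 2.85 FPKM in the Sham libraries (replicates 1, 2 and 3, as throughout), 4.04, 4.55 and 1.90 in CPIP, then 6.34, 3.04 and 2.87 in CPIP+EA. The groups overlapped, with means of 4.21 ± 1.21, 3.50 ± 1.41 and 4.08 ± 1.96 FPKM (SD, n = 3). Fosb, whose splice form deltaFosB builds up under repeated stimulation, measured 1.16, 1.82 and 0.92 FPKM in Sham, 0.19, 1.30 and 0.34 in CPIP, then 4.69, 0.50 and 0.52 in CPIP+EA. Its highest library was CPIP+EA replicate 1, and the other libraries of that group lay below all Sham libraries. The table gives 1 value per gene, so the splice forms were not separated. Junb, a Jun protein that activates transcription more weakly than c-Jun, measured 11.65, 15.69 and 9.78 FPKM in Sham, 10.66, 9.36 and 8.78 in CPIP, then 13.03, 8.86 and 10.82 in CPIP+EA. The mean of 9.60 ± 0.963 in CPIP was below that of 12.4 ± 3.02 in Sham (SD, n = 3), but CPIP replicate 1 exceeded Sham replicate 3.

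The EGR proteins are zinc finger factors that bind GC-rich sites. Egr1, which responds to growth factors and depolarisation in many cell types, was nearly constant in Sham at 10.92, 10.82 and 10.95 FPKM. It measured 8.33, 9.44 and 4.84 FPKM in CPIP, so every CPIP library lay below every Sham library. In CPIP+EA it measured 21.62, 4.25 and 4.24 FPKM, and this group held both the highest library of all and the lowest ones, with a mean of 10.0 ± 10.0 (SD, n = 3). Egr2, also known as Krox20 and required in Schwann cells for myelination, measured 8.08, 15.63 and 12.76 FPKM in Sham, 24.69, 21.49 and 8.87 in CPIP, then 9.71, 9.93 and 11.22 in CPIP+EA. CPIP replicates 1 and 2 were the highest of the 9 libraries, whereas CPIP replicate 3 lay within the range of Sham and below all of CPIP+EA. Egr3, a target of calcium signals needed for muscle spindles to form, measured 3.11, 4.40 and 2.79 FPKM in Sham, 3.39, 6.02 and 2.88 in CPIP, then 6.27, 3.23 and 2.61 in CPIP+EA, with overlap among all groups. The fourth gene of the family, Egr4, was at 0 to 0.06 FPKM and was not tested.

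The remaining genes have different roles. Nr4a1, an orphan nuclear receptor also called Nur77, measured 16.95, 27.00 and 20.80 FPKM in Sham, 27.58, 27.38 and 17.41 in CPIP, then 24.43, 18.36 and 18.89 in CPIP+EA. Its relative Nr4a2 lay between 3.75 and 5.17 FPKM and Nr4a3 between 0.17 and 0.61, and neither passed the threshold in any comparison. Arc, whose protein acts at synapses in the removal of AMPA receptors, measured 1.29, 1.33 and 1.18 FPKM in Sham, 1.18, 1.16 and 0.84 in CPIP, then 1.18, 0.74 and 0.92 in CPIP+EA. Sham lay at the top of the range, and single CPIP and CPIP+EA libraries reached its lowest value. Ier2, a small nuclear protein, measured 6.46, 7.43 and 5.64 FPKM in Sham, 7.62, 6.12 and 5.62 in CPIP, then 8.24, 4.81 and 6.22 in CPIP+EA, with group means of 6.51, 6.45 and 6.42. Npas4, a neuronal factor induced by calcium entry, measured 0.02, 0.03 and 0.03 FPKM in Sham, 0.05, 0.02 and 0.05 in CPIP, then 0.05, 0.05 and 0.06 in CPIP+EA. Values were deposited with 2 decimals, so its group differences were a few rounding steps, and no fold change is given.

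The first comparison, CPIP against Sham, addressed what the ischemic injury left changed in the ganglion at day 10. None of the 9 tested immediate early genes changed (limma, adjusted p under 0.01 together with a 1.5-fold or larger difference either way), where 0.355% of all genes did. Nor did any reach an unadjusted p under 0.05, where 8.66% of all genes did. The log2 fold changes, on the scale of log2(FPKM + 0.5), ran from -0.80 in Fosb (95% interval -2.19 to 0.60) to 0.50 in Egr2 (-0.30 to 1.30), with 3 positive and 6 negative. Their median was -0.19, against -0.0064 over all genes, and 0.058 without CPIP replicate 3. Leaving out that library moved Egr2 to 0.94 (limma adjusted p = 0.264), and leaving out CPIP replicate 1 moved it to 0.23. The smallest p belonged to Junb, with a log2 fold change of -0.33 (SE 0.18, limma adjusted p = 0.713), which was -0.15 without Sham replicate 2 and -0.48 without Sham replicate 3. Egr1 had a log2 fold change of -0.55 (SE 0.53, limma adjusted p = 0.901) and was the only tested member with no overlap of the groups, as held for 15.9% of all genes. The Egr1 value was -0.28 without CPIP replicate 3 and -0.73 without CPIP replicate 2. The Fosb value moved to -0.52 on omitting CPIP replicate 1, to -1.21 on omitting CPIP replicate 2 and to -1.26 with a pseudocount of 0.1.

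The second comparison, CPIP+EA against CPIP, addressed the effect of the stimulation in injured rats. No tested immediate early gene passed the threshold and none had an unadjusted p under 0.05, while the background was 0% and 4.29% of all genes. The log2 fold changes ran from -0.69 in Egr2 (95% interval -1.48 to 0.11) to 0.78 in Fosb (-0.61 to 2.18), with 4 positive and 5 negative and a median of -0.026, against 0.012 over all genes, which took either sign when single libraries were left out (-0.23 to 0.16). Egr2 had the smallest p (limma adjusted p = 0.996), and its log2 fold change was -1.13 after omitting CPIP replicate 3 and -0.41 after omitting CPIP replicate 1. Fos had a log2 fold change of 0.19 (-0.62 to 0.997) and Egr1 one of 0.03 (-1.17 to 1.22), intervals that hold a change of 1.5-fold or more in both directions. Without CPIP+EA replicate 1 the log2 fold change was -0.0061 in Fosb and -0.71 in Egr1. The intervals of Arc (-0.44 to 0.22) and Junb (-0.24 to 0.57) were the narrowest. No tested member had groups without overlap, as 8.23% of all genes did.

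The third comparison, CPIP+EA against Sham, shares its libraries with the other comparisons. Again 0 of 9 tested members changed, against 0.483% of all genes, and 0 had an unadjusted p under 0.05, against 12.2%. Only Egr3 had a positive log2 fold change, of 0.14, while 8 were negative, with a median of -0.084 against 0.0014 over all genes. Omitting Sham replicate 2 moved that median to 0.0135, omitting CPIP+EA replicate 2 moved it to 0.019, and omitting CPIP+EA replicate 1 moved it to -0.30. Arc had the smallest p, with a log2 fold change of -0.30 (95% interval -0.63 to 0.03, limma adjusted p = 0.456), and its value was -0.41 after omission of CPIP+EA replicate 1 and -0.19 after omission of CPIP+EA replicate 2. All 9 tested members overlapped between the groups or, in Arc, met at 1.18 FPKM, whereas 16.2% of all genes did not overlap. The value of Egr1 moved with the library left out: its log2 fold change was -0.52, but -1.26 without CPIP+EA replicate 1 (limma adjusted p = 0.0494, above 0.01) and -0.15 without either of the other CPIP+EA libraries. For Npas4, which was not tested, the 3 CPIP+EA values lay above the 3 Sham values, at the rounding limit.

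**Figure D2:**
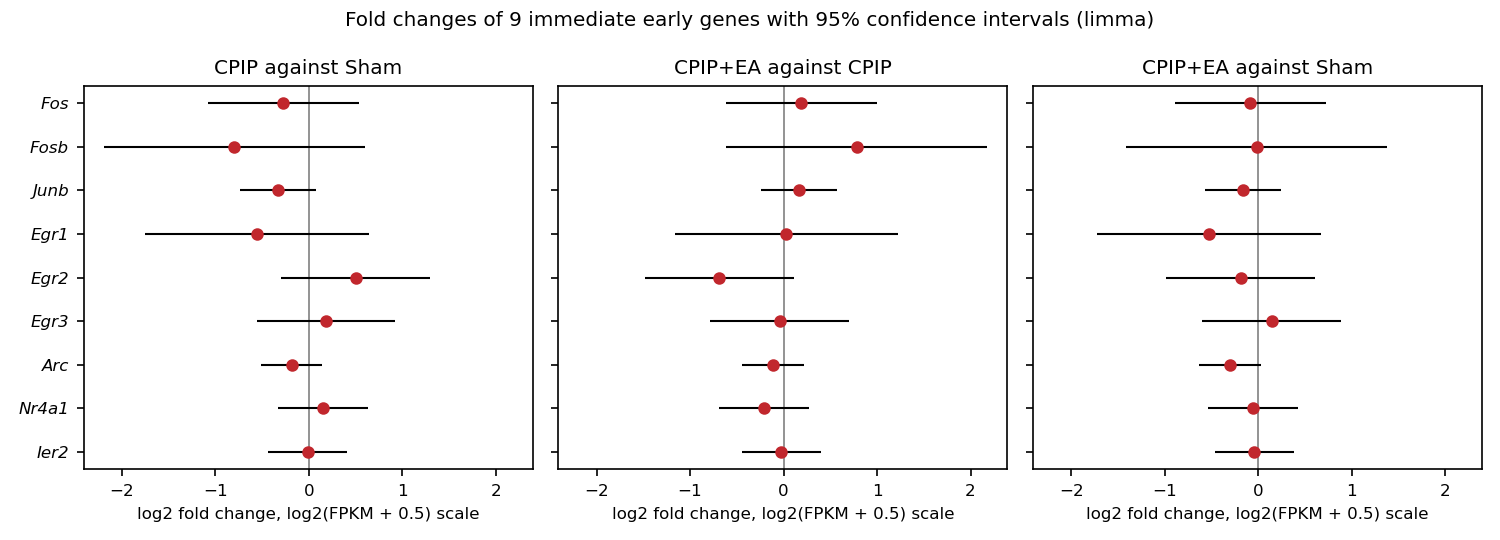
Log2 fold change with its 95% interval (limma) of the 9 tested immediate early genes in each of the 3 comparisons, on the scale of log2(FPKM + 0.5). Every interval includes 0, and those of Fosb and Egr1 are the widest.

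The widths of these intervals followed how far libraries of the same group lay apart. Within groups the residual SD of log2(FPKM + 0.5) was 0.917 in Fosb, 0.790 in Egr1, 0.525 in Egr2, 0.524 in Fos, 0.478 in Egr3, 0.314 in Nr4a1, 0.263 in Ier2, 0.257 in Junb and 0.169 in Arc. The median over the 13914 genes with a mean of at least 1 FPKM was 0.129. Fosb was thus more variable than 98.6% of these genes, Egr1 than 98.2%, and Egr2 and Fos each than 96.6%. In Fosb and Egr1, CPIP+EA replicate 1 lay far above the rest of its group. It was at 4.69 FPKM against 0.50 and 0.52 in Fosb, and at 21.62 against 4.25 and 4.24 in Egr1. The SD without this library is not given here. Among genes of similar level, Egr1 exceeded 98.7% and Nr4a1 96.4%, but Arc exceeded only 28.5%.

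**Figure D3:**
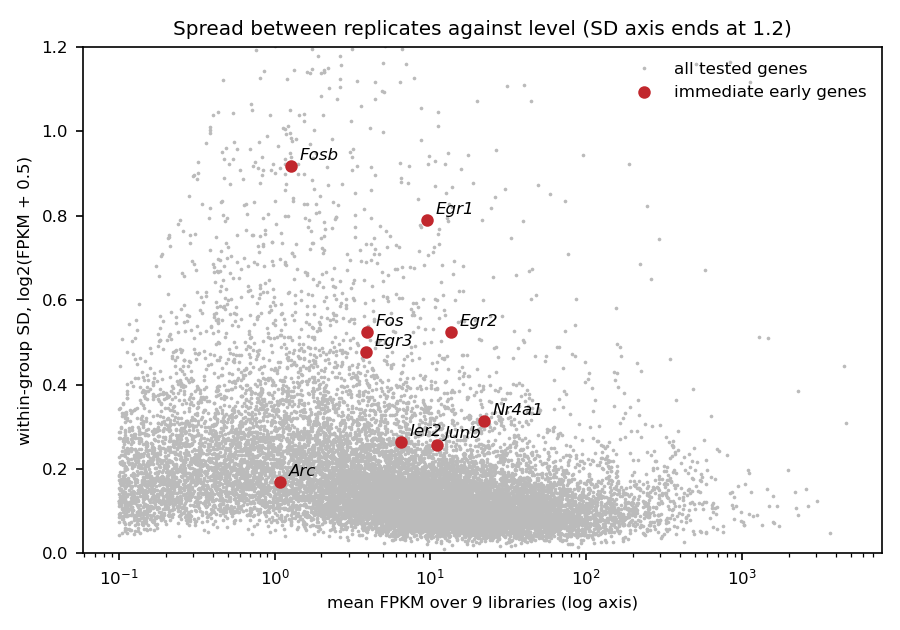
Residual SD within groups of log2(FPKM + 0.5) against mean FPKM on a log axis, with all tested genes in grey and the 9 immediate early genes named. The vertical axis ends at 1.2, beyond which 114 genes lie, and the members other than Arc sit in the upper part of the cloud.

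The genes did not scatter independently, since the same libraries were high or low for most of them. Each gene was put on a common scale as the z-score of its log2 level over the 9 libraries, and the 9 tested members were averaged. CPIP+EA replicate 1 had the highest mean z-score, 1.09, followed by Sham replicate 2 with 0.88. CPIP replicate 3 and CPIP+EA replicate 2 had the lowest, -1.04 and -0.96. CPIP+EA replicate 1 was the highest of its group for 8 of 9 members, with Egr2 as the exception, and the highest of all 9 libraries for Fos, Fosb, Egr1, Egr3 and Ier2. Sham replicate 2 was the highest of its group for 7 of 9 members, and CPIP replicate 3 the lowest of its group for 8 of 9, with Fosb as the exception. The summed level of the 10 genes was 64.8, 88.8 and 67.7 FPKM in Sham, 87.7, 86.8 and 51.5 in CPIP, then 95.6, 53.8 and 58.4 in CPIP+EA, so each group held high and low libraries. What set these libraries apart was not tested.

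**Figure D4:**
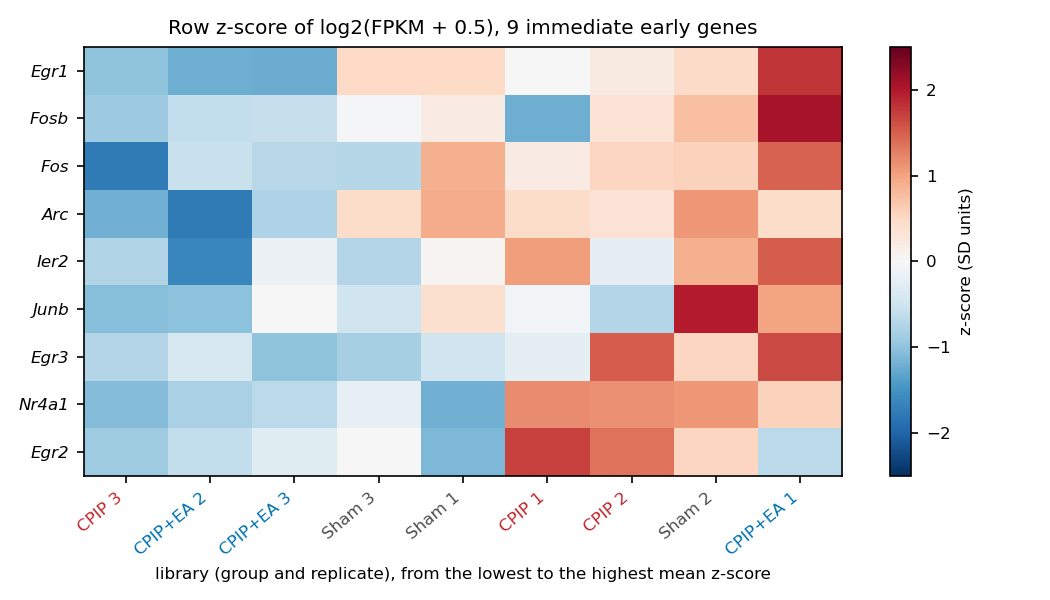
Z-scores of the 9 tested immediate early genes (rows) in the 9 libraries (columns), each gene scaled to mean 0 and SD 1 over the libraries. CPIP+EA replicate 1 is high in most rows and CPIP replicate 3 is low in most, while Egr2 is not high in CPIP+EA replicate 1.

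Over the 9 libraries, 35 of the 36 pairs of members had a Pearson r above 0, with a median of 0.61, and 25 pairs (69.4%) had an r above 0.5. Of all pairs among the 13914 genes, 12.1% did, and their median was 0.011. These are descriptions over 9 libraries of 3 groups. The closest pairs other than the one described next were Fosb with Egr1 (r = 0.82), Fos with Egr1 (0.80) and Egr1 with Arc (0.80). Deviations from the group means gave a median of 0.69, and leaving out CPIP+EA replicate 1 gave 0.57.

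Egr2 varied most closely with Nr4a1. Their levels had an r of 0.85 and a Spearman rho of 0.90, with 0.85 within groups and 0.95 without CPIP+EA replicate 1. Over the 9 libraries Egr2 had an r above 0.5 with no other member, its median over 8 partners was 0.25, and its r with Fosb was -0.18. Without CPIP+EA replicate 1 the median was 0.42, and Egr3 (0.62) and Ier2 (0.57) were above 0.5 too, while within groups Arc was at 0.52. Nr4a1 also had an r above 0.5 with Egr3 (0.69), Ier2 (0.64), Arc (0.56), Fos (0.53) and Egr1 (0.502). Egr2 levels went along with the Schwann cell markers, such as Mbp, Prx and Pmp22 (the median log2 deviation over the 12 markers), with an r of 0.71 (rho 0.82) and 0.66 within groups. Without the libraries farthest from the median of the markers, CPIP replicate 3 and CPIP+EA replicate 1, the r was 0.77. Egr2 also had an r of 0.57 with mural cell markers, 0.51 with skeletal muscle markers and 0.46 with endothelial markers. For Nr4a1 the r with the Schwann cell markers was 0.30, and 0.65 without those libraries. For Fosb it was -0.55, and -0.17 without them.

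The Schwann cell markers themselves summed to 4920, 6069 and 7442 FPKM in Sham, 7313, 7086 and 4988 in CPIP, then 3777, 5014 and 6824 in CPIP+EA. None of the 12 changed in any comparison. In CPIP+EA against CPIP, the comparison with the lowest fold change of Egr2, 11 of 12 had a negative log2 fold change, with a median of -0.31 and 1 (8.33%) at an unadjusted p under 0.05, against 4.29% of all genes. All 12 were above 0. The part of Schwann cell content in the Egr2 values was not tested.

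The genes most like the members were sought as those with the highest r between their log2 level and the mean z-score, among genes with a mean of at least 1 FPKM. The first 10 were Fip1l1 (0.92), Cyr61 (0.88), Baiap2l1 (0.88), Zfp36 (0.86), Agt (0.86), Dnm2 (0.86), Champ1 (0.86), Sin3a (0.85), LOC100910854 (0.85) and Ptprd (0.85), each over 9 libraries. Cyr61 and Zfp36 are immediate early genes too, a matrix protein and a factor that speeds the decay of short-lived mRNA. Cyr61 measured 6.52, 13.13 and 3.58 FPKM in Sham, 10.74, 4.92 and 3.08 in CPIP, then 9.92, 2.48 and 3.73 in CPIP+EA. Zfp36 measured 12.62, 18.27 and 12.03 FPKM in Sham, 20.15, 21.73 and 11.78 in CPIP, then 19.40, 10.87 and 11.43 in CPIP+EA. Both were low in CPIP replicate 3 and CPIP+EA replicates 2 and 3, and Cyr61 also in Sham replicate 3. Fip1l1, an mRNA 3' end processing factor, spanned only 17.05 to 19.60 FPKM, so likeness here is one of order and not of size.

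A wider list of 70 other genes known to be induced by activity or growth factors held 67 that were tested. This list, too, was drawn up with earlier results of these data known. Of 62 with a mean of at least 1 FPKM, 12 (19.4%) had an r above 0.5 with the members, against 5.54% of all genes, and the median was 0.15. Ier3, Sik1, Klf4, Errfi1 and Trib1 were among the 12. For deviations from the group means, 24 of the 62 (38.7%) had an r above 0.5, against 8.25% of all genes.

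In CPIP against Sham, 4 of the 67 rose and 0 fell, while 0.343% of all genes rose and 0.0116% fell. At an unadjusted p under 0.05 there were 20 (29.9%), 16 higher and 4 lower, against 8.66% of all genes. The 4 were Atf3, a stress-induced factor and standard mark of injured sensory neurons, Gadd45a, a DNA damage and stress gene also induced by nerve injury, Vgf, a secreted neuropeptide precursor, and Jun. Atf3 measured 4.77, 6.86 and 5.37 FPKM in Sham and 55.88, 50.51 and 61.58 in CPIP, without overlap (log2 fold change 3.21, SE 0.14, limma adjusted p = 1.19e-05). Jun measured 25.78, 24.00 and 19.81 FPKM in Sham and 42.42, 39.55 and 43.80 in CPIP (log2 fold change 0.85, SE 0.11, limma adjusted p = 0.00694). The log2 fold change was 1.40 for Gadd45a and 1.35 for Vgf. Atf3, Gadd45a and Jun also stand on the list of nerve injury genes above.

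In CPIP+EA against Sham, Atf3, Gadd45a, Vgf, Jun and Gadd45g rose and Amigo3 fell, while 0.477% of all genes rose and 0.00582% fell. Atf3 reached 72.86, 74.87 and 57.37 FPKM in CPIP+EA, and Jun 48.99, 40.24 and 41.70. In CPIP+EA against CPIP none of the 67 changed (limma, smallest adjusted p = 0.996) and 11 (16.4%) had an unadjusted p under 0.05, 6 higher and 5 lower, against 4.29% of all genes. The smallest of these p belonged to Dusp1, a phosphatase that switches off MAP kinases, at 17.34, 16.52 and 14.36 FPKM in CPIP, then 14.22, 10.60 and 10.97 in CPIP+EA (log2 fold change -0.42, limma adjusted p = 0.996). Rhob (-0.25), Irf1 (0.44), Klf2 (-0.66), Nfil3 (0.37) and Ppp1r15a (0.16) were next.

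The AP-1 family sets 3 members beside their relatives. Of 12 family genes tested, Atf3 and Jun rose in CPIP against Sham (0.343% of all genes rose) and in CPIP+EA against Sham (0.477%), and none changed in CPIP+EA against CPIP. The members Fos, Fosb and Junb had log2 fold changes of -0.27, -0.80 and -0.33 in CPIP against Sham, with upper limits of 0.53, 0.60 and 0.08. The interval of Jun ran from 0.61 to 1.09 and so lay above all of these. Jund was at 48.35 to 58.90 FPKM, and Fosl1 at 1.42 to 2.40 FPKM. A test of the difference between genes was not run.

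**Figure D5:**
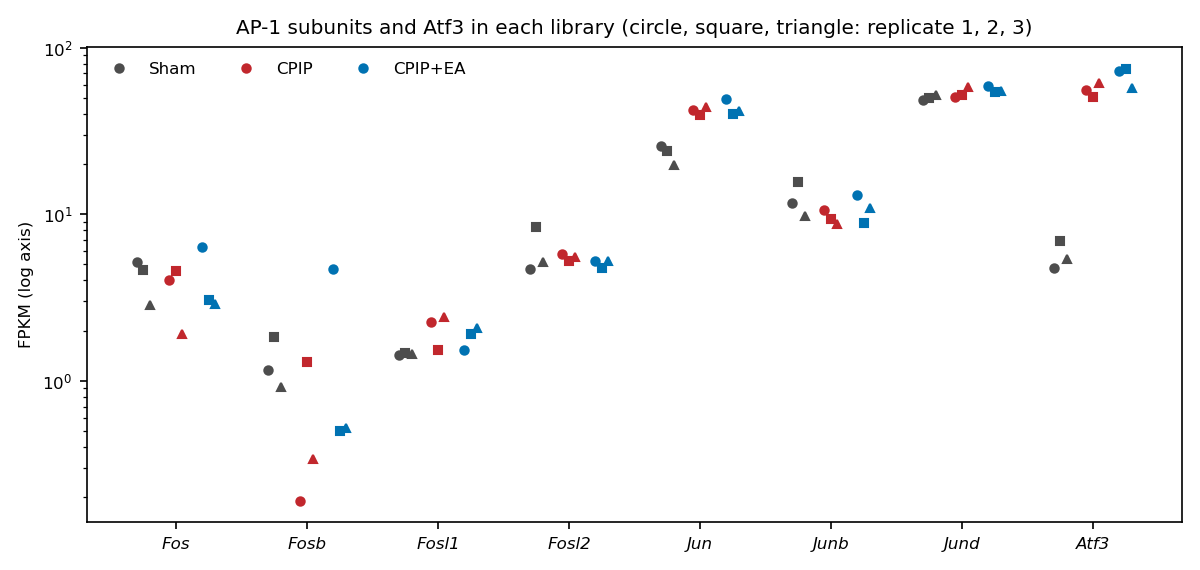
FPKM on a log axis of genes of the AP-1 family by library in Sham, CPIP and CPIP+EA. Atf3 and Jun stand higher in all CPIP and CPIP+EA libraries than in all Sham libraries, whereas Fos, Fosb and Junb overlap between groups.

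Upstream of these genes lie kinases, phosphatases, transcription factors and coactivators that induce them. Of 34 such genes tested, 0 changed in CPIP against Sham (0.355% of all genes did) and in CPIP+EA against CPIP (0%), and 1 changed in CPIP+EA against Sham (0.483%). This was Camk2d, a subunit of the calcium and calmodulin dependent kinase II, which rose from 29.49, 31.48 and 29.75 FPKM to 45.48, 47.31 and 44.78. In CPIP it measured 42.82, 42.26 and 47.12 FPKM, below the 1.5-fold limit at a log2 fold change of 0.53 (limma adjusted p = 0.00355). The constitutive factors were expressed throughout, Creb1 at 6.91 to 9.81 FPKM and Srf at 8.37 to 11.02. Nab1 and Nab2, which bind EGR proteins and repress their targets, were at 18.62 to 23.12 and 10.42 to 12.20 FPKM, and neither changed in any comparison. Of 14 heat shock genes, which stress and handling can induce, 0 passed the threshold in any comparison, where 0.355%, 0% and 0.483% of all genes did. Their sum, made up mostly of a few abundant members, was 4391 to 4593 FPKM in Sham, 4343 to 4540 in CPIP and 4677 to 4943 in CPIP+EA. The median log2 deviation over the list was -0.10 to 0.04 in Sham, -0.06 to -0.03 in CPIP and 0.02 to 0.07 in CPIP+EA, so CPIP+EA overlapped with Sham and lay above CPIP. Of the 14, 10 were higher and 4 lower in CPIP+EA against CPIP (median 0.09 on the log2 scale). In that comparison Hspa5 had the smallest p of the list (log2 fold change 0.41, limma adjusted p = 0.996). In the comparisons with Sham, Hspb1 had the smallest p of the list, at 180.78 to 205.66 FPKM in Sham, 276.64 to 383.55 in CPIP and 326.06 to 398.44 in CPIP+EA. Its log2 fold change against Sham was 0.68 in CPIP (limma adjusted p = 0.0657) and 0.92 in CPIP+EA (limma adjusted p = 0.0119). The r of this list with the mean z-score of the members was 0.10, and its part in the values was not tested.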

How the data were processed

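Oligo(dT)-selected RNA was sequenced as single-end reads on a BGISEQ-500. The authors filtered reads with SOAPnuke and deposited FPKM per gene with 2 decimals. The aligner, the counting tool, the genome build and whether strand was used are not given in the sources used here. The deposited table also holds the authors' own group comparisons (log2 ratios with P- and Q-values), which were not used. At the same threshold, the study reports far more changed genes than the fit used here. This holds for CPIP against Sham and for CPIP+EA against CPIP.

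Groups were taken from the sample labels. The study states 3 rats per group. Values were transformed as log2(FPKM + 0.5), which understates changes of low genes, and genes averaging 0.1 FPKM or more were fitted over all 9 libraries with limma 3.58.1 in R 4.3.3 (empirical Bayes with trend, two-sided, Benjamini-Hochberg). A gene was called when its adjusted p was under 0.01 and it differed 1.5-fold or more either way. Levels of neighbouring genes were compared by exact permutation in scipy 1.17.1. The fit was tested on simulated data. Other pseudocounts, filters, scalings, models and the omission of each library were tried.

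The members and gene lists were chosen with earlier results of these data known. Named were all members, of the other activity-induced genes those past the threshold or the 6 with the smallest p in a comparison, the 10 genes most like the members and, chosen after their values were seen, single genes of the wider and other lists. A marker gene of 1 list is not reported here and was left out of that list's values.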

Additional observations from a re-analysis of the deposited data

How the results depend on the processing

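Under each setting tried, 0 of the 9 immediate early genes passed the threshold in any comparison. With all libraries, 0 passed an adjusted p under 0.05 without a fold limit either. The count at an unadjusted p under 0.05 was 0 in each comparison as reported. In CPIP against Sham it was 1 (Egr1) when only the groups compared were fitted, a setting in which 10.3% of all genes did so. In CPIP+EA against Sham it was 1 (Arc) without the trend, against 12.0% of all genes. Leaving out 1 library gave 0 to 2 in CPIP against Sham, 0 to 1 in CPIP+EA against CPIP and 0 to 2 in CPIP+EA against Sham, where 6.55% to 10.5%, 2.92% to 7.27% and 9.68% to 13.8% of all genes did. Without CPIP+EA replicate 1, Egr1 had a log2 fold change of -1.26 against Sham (limma adjusted p = 0.0494) and -0.71 against CPIP. Without CPIP replicate 3, Egr2 had one of -1.13 in CPIP+EA against CPIP. The cause was not tested.

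The sign of several fold changes turned when single libraries were left out, also that of Fosb in CPIP+EA against CPIP (0.78 with all libraries). In CPIP against Sham the log2 fold change ranged from -0.50 to 0.058 in Fos, -0.10 to 0.38 in Egr3, -0.0053 to 0.37 in Nr4a1 and -0.13 to 0.079 in Ier2. In CPIP+EA against CPIP it ranged from -0.14 to 0.39 in Fos, -0.0061 to 1.195 in Fosb, -0.71 to 0.40 in Egr1, -0.37 to 0.24 in Egr3 and -0.21 to 0.15 in Ier2. In CPIP+EA against Sham it ranged from -0.41 to 0.10 in Fos, -0.80 to 0.39 in Fosb, -0.31 to 0.013 in Junb, -0.44 to 0.0135 in Egr2, -0.19 to 0.37 in Egr3, -0.21 to 0.12 in Nr4a1 and -0.22 to 0.14 in Ier2. With a pseudocount of 1 Fosb had 0.050 there.

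With the replicate block, 0 members passed in each comparison and the medians were again -0.19, -0.026 and -0.084. Leaving out 1 library moved these medians to -0.24 to 0.058, -0.23 to 0.16 and -0.30 to 0.019. Over all genes the block called 26, 0 and 42, against 61, 0 and 83. The labels give no pairing of same-numbered libraries, and the reported fit treated them as unpaired. Deviations of same-numbered libraries correlated at -0.26 to 0.34 over 9 pairs, with 2 above 0.1. So few correlations cannot settle whether these libraries were paired.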

Other observations

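Markers of further cell types were examined beside the immediate early genes, and none of them changed in any comparison. Macrophage markers, 11 such as Cd68 and C1qa, summed to 122 to 155 FPKM in Sham, 142 to 184 in CPIP and 138 to 261 in CPIP+EA. In CPIP+EA against Sham 8 of the 11 were higher and 3 lower, with a median log2 fold change of 0.32. At an unadjusted p under 0.05 with limma there were 3 (27.3%), all higher, against 12.2% of all genes. Fibroblast markers, 6 such as Col1a1 and Dcn, summed to 978 to 1311 FPKM in Sham, 836 to 1108 in CPIP and 555 to 1109 in CPIP+EA, and in CPIP+EA against Sham 5 of them reached an unadjusted p under 0.05 with limma, against 12.2% of all genes, with a median log2 fold change of -0.60. Satellite glia markers summed to 3652 to 3776 FPKM in Sham, 3816 to 4157 in CPIP and 4056 to 4237 in CPIP+EA, a sum made up mostly of Apoe. The 7 markers did not share a direction, with 4 higher and 3 lower in CPIP against Sham and 3 higher and 4 lower in CPIP+EA against Sham. Endothelial markers summed to 63.1 to 89.5 FPKM over all libraries and mural cell markers to 84.1 to 134. Mural cell markers were lower than Sham for 7 of 7 in CPIP (median log2 fold change -0.12) and in CPIP+EA (-0.20). None of these 7 had an unadjusted p under 0.05 with limma.

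Blood and muscle markers varied most between libraries. Erythroid markers ranged from 727 to 6309 FPKM, neutrophil markers from 38.8 to 710 and skeletal muscle markers from 7.54 to 125. Erythroid markers had a lower value in CPIP against Sham for 8 of 8 (median log2 fold change -0.67) and a higher one in CPIP+EA against CPIP for 8 of 8 (0.69). Their sums overlapped, at 1402, 4305 and 2247 FPKM in Sham, 1592, 2821 and 727 in CPIP, then 804, 2544 and 6309 in CPIP+EA. At an unadjusted p under 0.05 with limma there was 1 (12.5%) in CPIP against Sham, against 8.66% of all genes. In CPIP+EA against CPIP there was none. Neutrophil markers had a higher value in CPIP+EA for 9 of 9, against CPIP (0.67) and against Sham (0.82), where 54.0% and 50.4% of all genes were higher. None of the 9 had an unadjusted p under 0.05 with limma in either comparison. Their sums were 76.0, 199 and 710 FPKM in CPIP+EA, 38.8 to 298 in CPIP and 60.7 to 196 in Sham. Only CPIP+EA replicate 3 lay above all libraries of the other groups. Skeletal muscle markers had a higher value than Sham for 6 of 6 in CPIP (1.04) and in CPIP+EA (0.90). None of the 6 had an unadjusted p under 0.05 with limma in either comparison. Their sums were 9.30 to 16.1 FPKM in Sham, 27.1, 125 and 7.54 in CPIP, then 11.9, 39.0 and 33.9 in CPIP+EA. CPIP replicate 3 was thus the lowest library of all, and CPIP+EA replicate 1 lay within the range of Sham. Spinal cord markers stayed between 2.38 and 3.53 FPKM. The r over the 9 libraries between the mean z-score of the immediate early genes and the median log2 deviation of each marker list was 0.37 for sensory neurons, 0.29 for mural cells, 0.26 for fibroblasts, 0.11 for endothelium, 0.10 for macrophages, 0.04 for erythroid cells, 0.02 for skeletal muscle, -0.08 for neutrophils, -0.09 for Schwann cells, -0.12 for spinal cord and -0.15 for satellite glia. The part of cell makeup in the immediate early gene levels was not tested.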
